A study of Mus musculus with 12 samples.

Results

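The ribosomal protein genes described here encode the proteins of the cytosolic ribosome. They were chosen by symbol, as all features whose name begins with Rpl, Rps, Rplp or Rpsa, without pseudogene symbols and without the S6 kinases. This rule took 86 of the 32289 features, of which 31 were proteins of the small subunit, 46 were proteins of the large subunit, and 9 were relatives of these that the same rule takes in. The relatives were Rpl22l1, Rps27l, Rps27rt, Rpl10l, Rpl36al, Rpl39l, Rpl3l, Rpl7l1 and Rps19bp1, the last of which is a protein that binds Rps19 and no ribosomal protein itself. Every member had at least 1 unique molecular identifier (UMI, 1 captured RNA molecule) in the cells analysed. Together they held 2954916 of the 31122748 UMIs of these cells (9.49%), of which the 9 relatives held 33046.

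The data came from droplet scRNA-seq of the superior mesenteric ganglion (SMG), a sympathetic ganglion, from 12 mice of the strain 129+Ter/SvJcl. At an age of 3 weeks there were 1 wild-type (WT) animal and 10 Th-MYCN+/- mice (#1 to #10), and the last ganglion was from 1 Th-MYCN+/- animal aged 6 weeks. Th-MYCN+/- mice are hemizygous for a human MYCN transgene under the rat Th promoter, which is active in catecholamine-producing cells, and the 6-week-old ganglion was picked for its visible tumor. Tests were therefore made within the 10 mice of 3 weeks, between cell classes of the same mouse, and the 2 single mice are described without a test.

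Ribosomes are built from a small subunit, which reads the messenger RNA, and a large subunit, which joins amino acids. The subunits are assembled in the nucleolus, and growing cells spend a large part of their RNA on ribosomal proteins. The messengers of these proteins begin with a run of pyrimidines that couples their translation to growth signals, and MYC proteins are known as activators of genes for ribosomes. The assay counts UMIs from the 3-prime end of polyadenylated RNA, so it measures the messengers of ribosomal proteins and not ribosomes or ribosomal RNA. Its counts are given as a share of all UMIs of a cell class, or per 1000000 of them (CPM), and were not divided by gene length, so levels were compared between samples and classes and not between genes.

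The promoters of the members shared short words. For 66 of the 86 members, RefSeq sequence of the build GRCm38.p6 was at hand for 250 bases before and 50 bases after the start of the gene. The word CGGAAG, the core that ETS family factors bind, stood on either strand in 44 of these 66 promoters (66.7%), and in 17.0% of the promoters of 26959 other genes. Pyrimidine words (CTTTTC, or else CTTTCC, or else CCTTTC, or else CTCTTT, or else CTTTTT, which can overlap, on the strand of the gene from 20 bases before to 50 bases after the start) stood in 39 of 66 (59.1%) and in 10.2% of other genes. The word CACGTG, which MYC proteins bind, stood in 5 of 66 (7.6%) and in 7.2% of other genes, which is nearly the same share. Other genes were not matched on base composition, and a word in a promoter is a description of its sequence only. The 100 bases before the start are printed for 7 members to show these words, written along the strand of the gene with CGGAAG, its reverse complement CTTCCG, and CACGTG in capitals. Rps6, Rpsa and Rps3a1 hold CGGAAG, Rpl19 holds both words, and Rps26, Rpl22 and Rpl22l1, which stand at the ends of the comparisons between classes, hold neither in this window. Over the longer stretch counted above, Rps26 does hold CGGAAG, while Rpl22 and Rpl22l1 do not.
Rps6, chr4:86857368-86857467, minus strand: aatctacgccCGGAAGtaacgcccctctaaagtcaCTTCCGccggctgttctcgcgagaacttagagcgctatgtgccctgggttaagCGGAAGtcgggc
Rpsa, chr9:120127666-120127765, plus strand: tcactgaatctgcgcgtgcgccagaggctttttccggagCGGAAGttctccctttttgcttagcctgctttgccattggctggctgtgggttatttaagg
Rps3a1, chr3:86142669-86142768, minus strand: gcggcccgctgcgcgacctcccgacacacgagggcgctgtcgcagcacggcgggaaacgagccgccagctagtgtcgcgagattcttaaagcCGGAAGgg
Rpl19, chr11:98026610-98026709, plus strand: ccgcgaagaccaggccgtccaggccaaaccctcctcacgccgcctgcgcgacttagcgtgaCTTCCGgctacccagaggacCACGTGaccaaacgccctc
Rps26, chr10:128626507-128626606, minus strand: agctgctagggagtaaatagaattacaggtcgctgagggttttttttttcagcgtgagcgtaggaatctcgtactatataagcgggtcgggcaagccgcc
Rpl22, chr4:152325626-152325725, plus strand: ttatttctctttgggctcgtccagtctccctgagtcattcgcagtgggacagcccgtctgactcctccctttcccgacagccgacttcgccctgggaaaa
Rpl22l1, chr3:28805408-28805507, plus strand: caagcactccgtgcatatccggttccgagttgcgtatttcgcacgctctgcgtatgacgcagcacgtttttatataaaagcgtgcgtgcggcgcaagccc
The 86 members lay on 19 chromosomes, 4 of them on X, so that the family is no cluster of neighbouring genes.

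The libraries held 1147772 UMIs in the WT mouse, 4824039 in the 6-week-old mouse and between 1444554 and 6388766 in mice #1 to #10. Cells were called and filtered anew, which left 12066 cells, and were grouped into 15 clusters without any use of the ribosomal protein genes or the transgene. Clusters were named from marker lists, which gave 5297 neuroblast-like, 2917 Schwann-like, 2712 ganglion-like and 545 endothelial-like cells beside 4 smaller classes and 49 unnamed cells. Neuroblast-like cells had a median of 2614 UMIs, ganglion-like cells 1154, Schwann-like cells 937 and endothelial-like cells 1031. Markers of another class were present at lower levels in some classes. In macrophage-like cells the 12 Schwann markers summed to 67879 CPM, against 122189 in Schwann-like cells themselves. Only 2 of these 12 markers passed the threshold for naming clusters in the macrophage-like cluster. This sum therefore need not stand for the whole Schwann list, and the part of each marker in it was not tested. The 12 Schwann markers summed to 6152 CPM in the neuroblast-like cells of #2, against at most 1296 in the other 9 mice. Of 11972 distinct cell barcodes, 93 occurred in more than 1 library. Doublets were not removed.

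The first comparison asked how much of the RNA of each cell class came from ribosomal protein genes. Ribosomal protein UMIs made up 12.1% ± 1.86 (SD, n = 10 mice) of all UMIs in neuroblast-like cells, with a range from 9.59% to 14.4% and a median of 12.4%. In ganglion-like cells, the neurons of this ganglion, the share was 5.16% ± 1.08, with a range from 3.87% to 6.57% and a median of 4.95%. Schwann-like cells, which are glia, stood at 5.39% ± 0.942, between 4.10% and 6.61% with a median of 5.54%. No neuroblast-like value was as low as the highest ganglion-like or Schwann-like value. The highest share among the larger classes was that of endothelial-like cells, the lining of vessels, with 13.8% ± 2.54 and a range from 10.2% to 18.1%. Macrophage-like cells had 9.80% ± 2.04 (n = 10), myofibroblast-like cells 8.22% ± 1.31 (n = 9) and fibroblast-like cells 7.87% ± 2.04 (n = 9). A class of 44 NKT-like cells had 26.6% in the 3 mice with enough cells, and the unnamed cluster, led by immunoglobulin genes, had 26.5% in 2 mice.

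**Figure D1:**
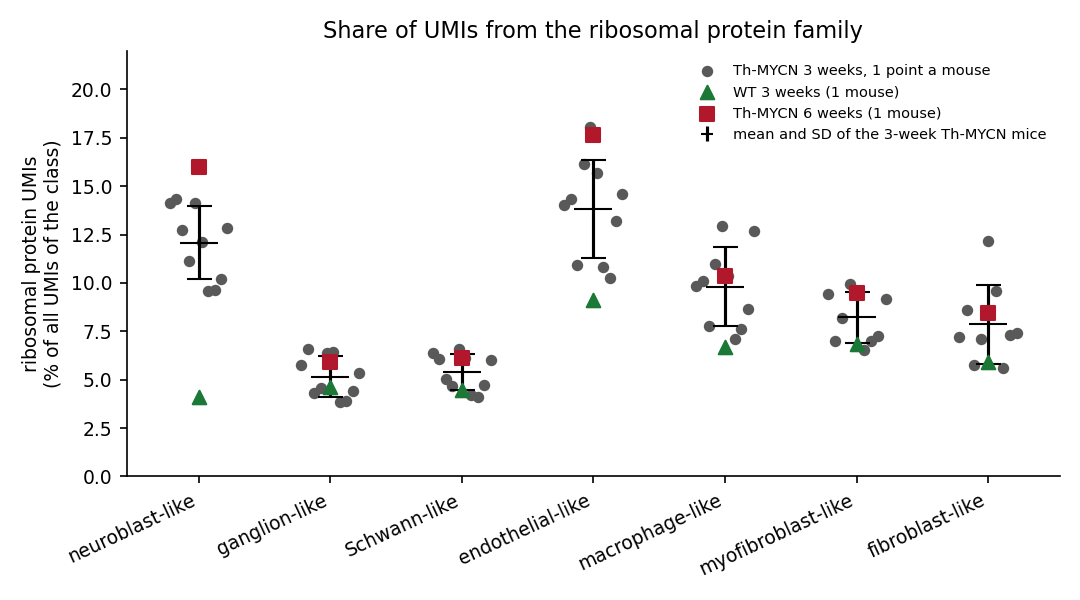
Share of all UMIs of a cell class that came from ribosomal protein genes (vertical axis, %) for 7 classes, with 1 point for each 3-week-old Th-MYCN+/- mouse, bars for their mean and SD, and separate symbols for WT and 6 weeks. Neuroblast-like cells sit between 9.59% and 14.4%, above every ganglion-like and Schwann-like point of these mice, and the 6-week-old mouse lies above them at 16.0%. The WT cells plotted as neuroblast-like go against that name by their markers.

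Within mice, the neuroblast-like share was higher than the ganglion-like share by 6.94 percentage points ± 1.15, in 10 of 10 mice (exact two-sided sign-flip permutation test, adjusted p = 0.00391 over 6 comparisons). It was higher than the Schwann-like share by 6.70 points ± 1.08, also in 10 of 10 mice (exact test, adjusted p = 0.00391). Mitochondrial UMIs, a sign of cell quality, made up 0.663% of neuroblast-like, 1.27% of ganglion-like and 1.82% of Schwann-like UMIs, and the differences passed alike without them. The unadjusted p of both was 0.00195, the smallest that 10 mice allow. Differences to fibroblast-like cells (4.14 points ± 1.97, 9 of 9 mice) and myofibroblast-like cells (3.62 points ± 1.07, 9 of 9 mice) passed the same exact test with an adjusted p of 0.00469. Macrophage-like cells were lower by 2.29 points ± 1.71 in 10 of 10 mice (exact adjusted p = 0.00391). This difference shrank to 0.429 points (exact p = 0.625) when clustering kept the ribosomal protein genes and regressed out their percentage, to 0.471 at a coarser clustering and to 0.419 with barcodes of at least 500 UMIs. Endothelial-like cells had a higher share in 7 of 10 mice, with a difference of -1.72 points ± 2.14 for neuroblast-like minus endothelial-like cells (exact p = 0.0449). That difference no longer passed when at least 20 cells per class (-2.21 points, 7 mice, exact p = 0.0938) or barcodes with at least 500 UMIs (-1.76, exact p = 0.0586) were required.

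In the order of the 7 classes, some neighbours could not be told apart. Schwann-like cells lay 0.233 points above ganglion-like cells in 8 of 10 mice (exact permutation test, adjusted p = 0.120 over 6 neighbour pairs), and myofibroblast-like cells 0.332 points above fibroblast-like cells in 4 of 8 mice (exact test, adjusted p = 0.531). The difference between endothelial-like and neuroblast-like cells at the top of the order did not pass under this adjustment (exact test, adjusted p = 0.0674). The steps from Schwann-like to fibroblast-like (2.55 points), from myofibroblast-like to macrophage-like (1.55 points) and from macrophage-like to neuroblast-like cells (2.29 points) each had an exact adjusted p of 0.00781.

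In most libraries the shares of the classes lay on the same side of the group's median. Mouse #5 lay above the median of its group in 7 of 7 classes, and #2 and #10 in 6 of 6, while #7 lay below it in 7 of 7 and #8 in 6 of 7. In #3 and #9 they lay below it in 6 of 7 classes and in #6 above it in 6 of 7, but #1 was mixed, with 3 classes below and 4 above, and so was #4, with 4 below and 2 above. Across the 10 mice, the shares of neuroblast-like and Schwann-like cells correlated with a Pearson r of 0.913 (permutation test, adjusted p = 0.00228 over 3 relations) and a Spearman rho of 0.842 (adjusted p = 0.0104). Without #7 and #8, the 2 mice farthest from the median, r was 0.832 (permutation test, adjusted p = 0.0475), but rho was 0.714 and no longer passed (adjusted p = 0.0864). When clustering regressed out the ribosomal percentage, r was 0.501 (permutation test, adjusted p = 0.160) and rho 0.733 (adjusted p = 0.0605). Both shares came from the same libraries, so a difference in library preparation cannot be told apart from a difference between mice. Relative to its mean, the ratio of the neuroblast-like share to that of Schwann-like or ganglion-like cells varied less than these shares did. It was 2.26 ± 0.156 for neuroblast-like over Schwann-like cells (range 1.99 to 2.52) and 2.38 ± 0.274 over ganglion-like cells (range 1.88 to 2.96). The ratio over endothelial-like cells was 0.890 ± 0.144 (range 0.688 to 1.17) and did not vary less than the neuroblast-like share. Droplets without cells, which hold free RNA, had a ribosomal protein share between 7.63% and 14.2% in these libraries. This share was not detectably related to that of the neuroblast-like cells (r = 0.504, permutation test, adjusted p = 0.140, and rho = 0.382). With 10% or 20% of each class's UMIs subtracted as free RNA, and under all other alternatives, the difference between neuroblast-like and ganglion-like cells lay between 6.71 and 8.67 points and that to Schwann-like cells between 6.13 and 8.38 points.

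The difference in share was present at every depth of cell. In neuroblast-like cells the share was 13.1% ± 1.58 among cells with 200 to 499 UMIs and 11.5% ± 1.89 among cells with at least 4000 UMIs. In the same bins, ganglion-like cells had 5.09% ± 0.895 and 5.17% ± 1.02. Schwann-like cells went from 5.63% ± 1.15 in the shallowest bin to 5.00% ± 1.04 from 2000 to below 4000 UMIs. Not every mouse had enough cells in each bin, so the bins do not hold the same mice. Among the 5 neuroblast-like clusters, the mean share was 13.5% in the cluster led by Agtr2 and Ppp1r17, 12.02% in the shallow cluster with a median of 476 UMIs, and 11.8%, 11.8% and 11.4% in the other three.

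**Figure D2:**
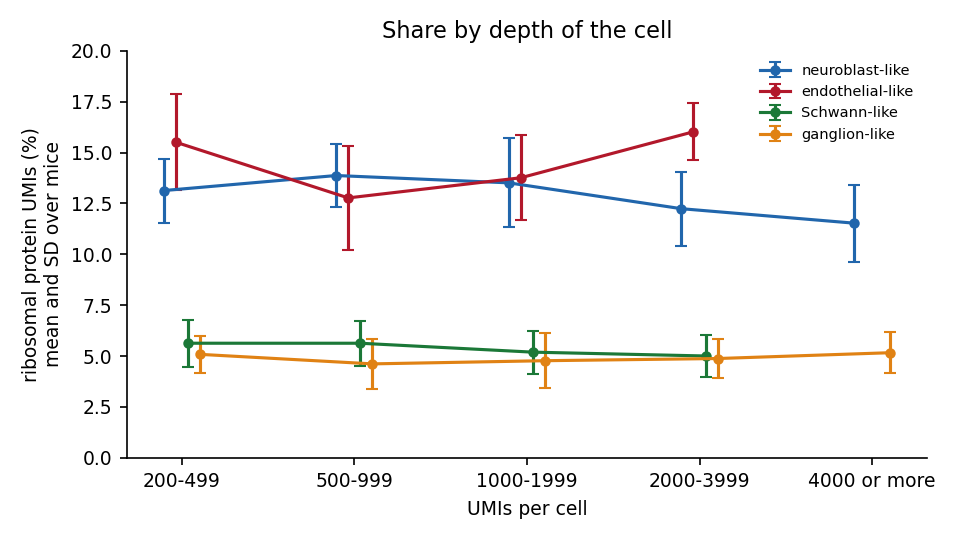
Share of UMIs from ribosomal protein genes (vertical axis, %) by number of UMIs per cell (horizontal axis, bins) for 4 cell classes, as mean and SD over the mice with enough cells in a bin. Neuroblast-like cells stay between 11.5% and 13.9% over the bins, while ganglion-like and Schwann-like cells stay between 4.62% and 5.63%.

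Next, each gene was compared between neuroblast-like and ganglion-like cells with UMIs summed per mouse and class, in edgeR's quasi-likelihood test with the mouse as a block. Of the 82 members with enough counts, 80 were higher in neuroblast-like cells and 0 were lower at a false discovery rate (FDR) of 0.05. Since these classes differ in much of their expression, 37.1% of all 7801 genes tested were called higher and 31.8% lower. The median log2 fold change was 1.25 over the family and 0.097 over all genes. All 31 members of the small subunit and all 45 tested members of the large subunit were called higher, with medians of 1.35 and 1.11. The 2 members not called were both relatives, Rpl22l1 (log2 fold change -0.01, SE 0.150, edgeR adjusted p = 0.978) and Rps19bp1 (0.21, SE 0.182, edgeR adjusted p = 0.307). In 38 of 82 members, the lowest of the 10 neuroblast-like values lay above the highest ganglion-like value, where 12.1% of all genes tested did so. The reverse was so for 0 members and 9.43% of all genes. Rpl29, Rpl10l, Rpl39l and Rpl3l had too few UMIs in these cells to be tested in any comparison.

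The largest difference was that of Rps26, a small-subunit protein at the channel through which messenger RNA leaves. It had 596 to 2843 CPM (median 1150) in neuroblast-like cells and 126 to 773 CPM (median 279) in ganglion-like cells. The ranges overlapped, but Rps26 was higher in 10 of 10 mice, by 2.12 on the log2 scale (SE 0.111, edgeR adjusted p = 3.44e-12). Rpl22, an RNA-binding protein of the large subunit, had 239 to 659 CPM (median 392) against 58.9 to 160 CPM (median 104.8), with no overlap (log2 fold change 1.94, SE 0.132, edgeR adjusted p = 1.20e-10). Rplp0, the base of the stalk that recruits elongation factors, stood at 3220 to 5746 CPM against 969 to 1505 CPM, again without overlap (1.90, SE 0.089, edgeR adjusted p = 7.95e-13). The next were Rpl7a (1.88, SE 0.113) of the large subunit and Rps3 (1.79, SE 0.106) at the entry of the messenger RNA channel, whose ranges did not overlap either.

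At the other end of the members called, Rplp1, an acidic protein of the same stalk as Rplp0, differed by 0.47 (SE 0.122, edgeR adjusted p = 0.00221), with 550 to 1547 CPM (median 1007) against 276 to 1140 CPM (median 746). It was called in 9 of 10 alternatives. Its partner Rplp2 differed by 1.30 (SE 0.114), so the proteins of the stalk did not move by the same amount. Rpl36al, a relative of Rpl36a, had the smallest difference (0.30, SE 0.126, edgeR adjusted p = 0.0399), and it was called in 5 of 10 alternatives only. Rpl38 (0.73, SE 0.103), Rpl23 (0.77, SE 0.107) and Rps27 (0.77, SE 0.218) came next. Rps27 stood between 6.27 and 67.2 CPM over both classes.

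Members with roles outside protein synthesis lay between these ends. Rps6, whose phosphorylation by S6 kinases is a common readout of growth signalling, had 2645 to 3406 CPM against 996 to 1850 CPM (log2 fold change 1.18, SE 0.098). Rpsa, also known as a laminin receptor, had 1229 to 2560 CPM against 510 to 690 CPM (1.67, SE 0.100). Rpl5 and Rpl11, which bind the p53 regulator Mdm2 when ribosome assembly is disturbed, differed by 1.5 (SE 0.147) and 1.04 (SE 0.097). The edgeR adjusted p of these 4 genes ranged up to 2.08e-08, and the ranges of Rpl11 were the only ones among them to overlap. Rpl13, Rpl3 and Rpl41 of the large subunit were, with Rplp0, among the members with the most UMIs in neuroblast-like cells, and their log2 fold changes were 1.497, 0.90 and 1.02 in that order.

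Against Schwann-like cells, 74 of 82 members were higher in neuroblast-like cells and 0 were lower, where 37.0% of the 5727 genes tested were called higher and 31.3% lower. The median log2 fold change was 0.89 over the family and 0.10 over all genes. In 32 of 82 members the groups of mice did not overlap with neuroblast-like cells higher, against 18.4% of all genes, and in 0 with them lower, against 7.91%. Rps26 again had the largest difference (1.81, SE 0.187), with 123 to 603 CPM (median 243) in Schwann-like cells. Rpsa (1.73, SE 0.162), Rpl12 (1.66, SE 0.195), which sits at the base of the stalk, Rpl6 (1.55, SE 0.176) and Rps3a1 (1.48, SE 0.174) followed, each without overlap between groups, with edgeR adjusted p-values from 1.08e-09 to 5.43e-08. The smallest differences called were those of Rpl9 (0.40), Rpl41 (0.43), Rpl22l1 (0.49), Rpl35a (0.49) and Rplp1 (0.56). Of 10 alternatives, Rpl41 was called in 6, Rpl9 in 8, Rpl22l1 and Rpl35a in 9 each and Rplp1 in 10. The 8 members not called were Rps27, Rps27l, Rps27rt, Rps29, Rpl30, Rpl10, Rpl7l1 and Rps19bp1. Rpl30 had 125 to 422 CPM against 108 to 374 CPM, and the difference of this large-subunit gene was not called (0.01, SE 0.157, edgeR adjusted p = 0.972).

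**Figure D3:**
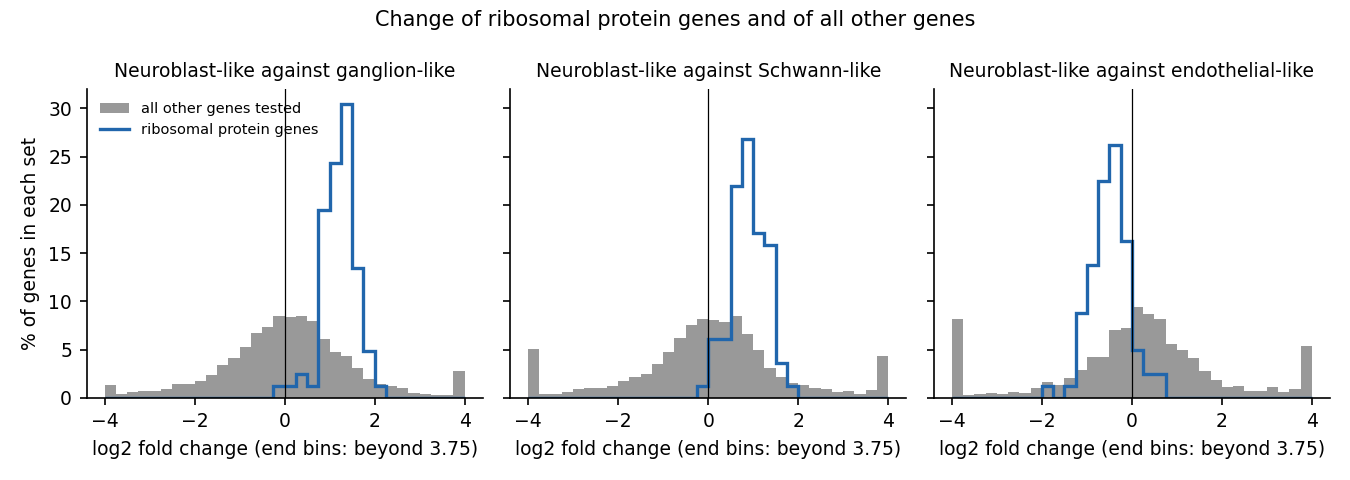
Distribution of log2 fold changes of neuroblast-like cells against ganglion-like, Schwann-like and endothelial-like cells (horizontal axis; end bins hold values beyond 3.75) for the ribosomal protein genes tested (blue line) and all other genes tested (grey bars), as % of each set (vertical axis). The blue line is narrow and lies around medians of 1.25, 0.89 and -0.49, while the grey bars spread around 0.

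Against endothelial-like cells, 2 of 80 members were higher in neuroblast-like cells, Rpsa (0.64, SE 0.130) and Rps26 (0.44, SE 0.161), and 50 were lower. Of the 2274 genes tested, 36.1% were called higher and 29.2% lower. The family median was -0.49 and that of all genes 0.17. The number of these calls changed with the settings. More members were higher than lower without a filter on low counts, and also with counts scaled to ribosomal protein UMIs alone. The latter gave 20 higher and 18 lower (all genes 1298 and 428 of 2274). With DESeq2's size factors in edgeR, 7 members were higher and 36 lower (all genes 1025 and 566 of 2274). With size factors from genes outside the family they were 2 and 40 (all genes 839 and 634 of 2274). Without a filter on low counts 32 of 85 were higher and 3 lower (all genes 4468 and 2449 of 18640). The family median was then 0.38 beside 0.69 for all genes. Without #2, the counts were 7 and 25 of 82 (all genes 1844 and 1048 of 4857). Relative to the median of all genes, the family lay lower by 0.309 to 0.711 under every setting. Rps14, a small-subunit protein, stayed lower in 10 of 10 alternatives (main value -1.36, SE 0.129; 2919 to 6038 CPM in endothelial-like and 1299 to 3035 CPM in neuroblast-like cells). Rps27rt, a copy of Rps27, had the largest difference (-1.99, SE 0.188, edgeR adjusted p = 9.89e-09), with 131 to 400 CPM in neuroblast-like and 186 to 1426 CPM in endothelial-like cells, and was higher in neuroblast-like cells in 0 of 10 mice.

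To see which members moved more or less than the family, the same counts were scaled to ribosomal protein UMIs alone. Relative to the family, 19 members were then higher and 25 lower in neuroblast-like than in ganglion-like cells, and 20 and 22 against Schwann-like cells. On this scale 744 of all 7801 genes tested were called higher and 5590 lower against ganglion-like cells. Against Schwann-like cells, 872 of 5727 were called higher and 3393 lower. Rps26 lay 0.85 above the family in the comparison with ganglion-like cells, Rpl22 0.67 and Rplp0 0.61. Rpl22l1 lay 1.27 below it (family-scaled log2 fold change -1.27, edgeR adjusted p = 1.13e-07), Rps19bp1 1.07 (-1.07), Rpl36al 0.97 (-0.97) and Rplp1 0.81 (-0.81). The small subunit held 40.8% ± 1.23 of the family's UMIs in neuroblast-like cells (38.8% to 42.6%) and 37.6% ± 1.21 in ganglion-like cells (35.7% to 39.5%), so that the ranges over mice overlapped. Its share was 37.9% ± 1.99 among Schwann-like and 41.98% ± 1.22 among endothelial-like cells.

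The balance of one pair of related genes differed between classes. Rpl22 and Rpl22l1 encode near relatives that can take the same place in the large subunit. Rpl22l1 was at 74.7 to 274 CPM (median 138) in neuroblast-like cells and 75.3 to 273 CPM (median 123) in ganglion-like cells, which is nearly the same range, while Rpl22 differed without overlap. As a share of the UMIs of the pair, Rpl22l1 made up 25.02% ± 5.52 in neuroblast-like cells (17.0% to 33.8%) and 55.4% ± 9.97 in ganglion-like cells (46.5% to 80.6%). The share was lower in neuroblast-like cells in 10 of 10 mice, by 30.4 points ± 6.95 (exact two-sided sign-flip permutation test, adjusted p = 0.00781 over 4 paralog comparisons). The difference kept its direction and passed in all 11 alternatives, with values from -50.2 to -26.6. In Schwann-like cells Rpl22l1 made up 26.8% ± 12.1 of the pair, and the difference of -2.26 points was smaller than its SD between mice of 7.99 points (exact permutation test, adjusted p = 0.898, n = 9). Over the 10 mice, Rpl22l1 and Rpl22 had 1858 and 5814 UMIs in neuroblast-like, 1304 and 996 in ganglion-like, and 166 and 515 in Schwann-like cells.

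**Figure D4:**
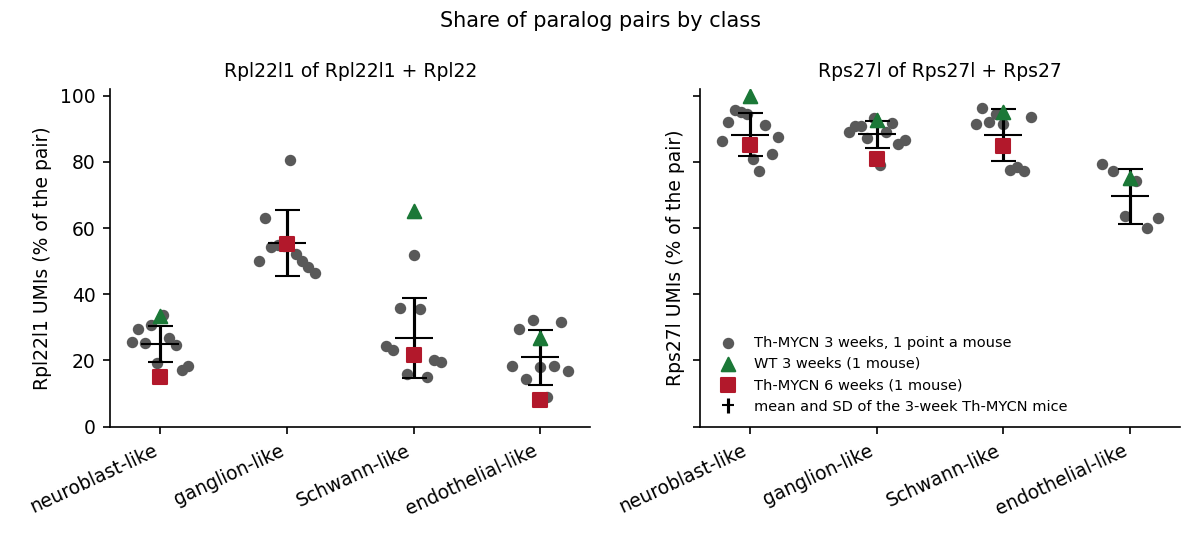
Share of the second gene in 2 paralog pairs (vertical axis, % of the UMIs of the pair) for 4 cell classes, with 1 point a mouse with at least 10 UMIs of the pair, bars for mean and SD of mice #1 to #10, and symbols for the WT and 6-week-old mice. Rpl22l1 takes 46.5% to 80.6% of its pair in ganglion-like cells and 17.0% to 33.8% in neuroblast-like cells, while Rps27l takes around 88.3% in both. The level of Rps27 is uncertain, because reads that also fit its copy Rps27rt are not counted.

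For the other pairs the difference did not pass, or was not tested. Rps27l, a relative of Rps27 that p53 is known to induce, made up 88.3% ± 6.44 of its pair in neuroblast-like and 88.3% ± 4.10 in ganglion-like cells (exact permutation test, adjusted p = 0.988), and 88.1% ± 7.89 in Schwann-like cells (exact permutation test, adjusted p = 0.988, n = 9). Rps27 had 491 UMIs in neuroblast-like and 162 in ganglion-like cells, while its copy Rps27rt had 3072 and 756. Reads that fit both copies are not counted, so these shares need not show the balance of Rps27l and Rps27. Rpl36al made up 56.5% ± 6.68 of the pair with Rpl36a in neuroblast-like and 69.3% ± 7.12 in ganglion-like cells, which is the same direction as for Rpl22l1. Rpl7l1 made up 7.06% and 8.27% of the pair with Rpl7. Rpl39l, a relative of Rpl39 known from germ cells, had 0 UMIs beside 3917 of Rpl39 in neuroblast-like cells.

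Levels of members with near-identical copies are uncertain, because reads that fit several places in the genome are not counted. Over all cells of a mouse, Rpl10 had 7.56 to 36.0 CPM beside 109 to 554 CPM for the pseudogene Rpl10-ps3, and Rps27 had 15.0 to 65.4 CPM beside 111 to 400 CPM for Rps27rt. Rpl9 had 63.9 to 314 CPM beside 99.2 to 589 CPM for Rpl9-ps6, and Rpl36a 159.5 to 333.7 CPM beside 32.5 to 201 CPM for Rpl36a-ps1. The shares of the pairs with Rps27 and Rpl36a are therefore uncertain as well. The 5 pseudogene symbols that the rule leaves out held 23606 UMIs in all.

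Within the neuroblast-like class, cells were compared at an equal depth of 1000 UMIs per cell. Cells in which at least 1 UMI of the transgene was captured had a ribosomal protein share of 12.5% ± 1.93 and cells without one had 12.1% ± 1.96, a difference of 0.386 points ± 0.616 in 7 of 9 mice (exact permutation test, p = 0.106). Before thinning, the median over mice of UMIs per cell was 4272 with and 4238.5 without the transgene UMI. The difference did not pass, but it did under 6 of 14 alternatives, with 0.378 to 1.27 points. No member was called between these cells in edgeR (0 higher and 0 lower of 80, with 0.0428% of 2337 genes called higher and 0.0856% lower), or in DESeq2. In edgeR, 10 of the 80 members and 147 of the 2337 genes had an unadjusted p under 0.05. The one gene called higher was the transgene itself. Between mice, the share of neuroblast-like cells was negatively related to the transgene level of the same cells, with r = -0.666 (permutation test, adjusted p = 0.0617) and rho = -0.709 (adjusted p = 0.0403). Without #4 and #8, the mice farthest from the median transgene level, r was -0.549 (permutation test, adjusted p = 0.237) and rho -0.738 (adjusted p = 0.0864). Without #2, r was -0.577 (permutation test, adjusted p = 0.156) and rho -0.60 (adjusted p = 0.144). The sign held but the relation passed in neither case.

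Cells of each mouse with many and with few UMIs of cell cycle genes were compared in the same way. Cells with many such UMIs (28.3 of 1000 on average) had a ribosomal protein share of 11.9% ± 2.18, and cells with few (5.09 of 1000) had 12.8% ± 2.24. The share was lower in cells with many cell cycle UMIs in 10 of 10 mice, by 0.988 points ± 0.654 (exact permutation test, adjusted p = 0.00391 over 2 comparisons). When the cell cycle genes were left out of the total, an alternative chosen after seeing the data, the difference was -0.709 points (exact permutation test, adjusted p = 0.00391). Without thinning to an equal depth it was -0.179 points (exact permutation test, p = 0.723).

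Genes that act beside the ribosomal proteins were read from fixed lists. Fau and Rack1, which encode ribosomal proteins under other names, were higher in neuroblast-like than in ganglion-like (log2 fold changes 0.65 and 1.78) and Schwann-like cells (0.76 and 1.42). The counts that follow stand beside 37.1% of all genes called higher and 31.8% lower against ganglion-like, 37.0% and 31.3% against Schwann-like, and 36.1% and 29.2% against endothelial-like cells. Of 26 tested genes of nucleolar ribosome assembly, 24 were higher and 0 lower than in ganglion-like cells (median 1.44), 19 of 22 were higher than in Schwann-like cells (median 1.17), and 8 of 11 were higher and 0 lower than in endothelial-like cells (median 1.20). In the last comparison the median of the ribosomal proteins was -0.49, and the difference between the lists was not tested. Fbl, the methyltransferase of ribosomal RNA, was higher than in these 3 classes by 2.60, 2.31 and 1.61, and Npm1, a chaperone of the nucleolus, by 2.25, 2.10 and 1.20. Of 34 translation factors, 28 were higher and 3 lower than in ganglion-like cells (median 0.90), 29 and 2 than in Schwann-like cells (median 0.91), and 7 and 9 of 31 than in endothelial-like cells (median 0.003). Against ganglion-like cells, the RNA helicase Eif4a1 was higher by 2.38 (SE 0.146), while its relative Eif4a2 was lower by 0.69 (log2 fold change -0.69, SE 0.121), and the elongation factor Eef1a1 was higher by 1.01. Against Schwann-like cells all 3 were called higher, with 2.05 for Eif4a1, 0.48 for Eif4a2 and 1.01 for Eef1a1. Against endothelial-like cells Eif4a1 was higher (1.92), Eif4a2 was not called (0.21) and Eef1a1 was lower (-0.71). Mitochondrial ribosomal proteins, which form the ribosome of another organelle, were 30 higher, 7 lower and 40 not called of 77 against ganglion-like cells (median 0.32). The number called higher was near the share of all genes, but the number called lower was below it. With DESeq2's size factors in edgeR, 42 were higher and 6 lower (all genes 3112 and 2308 of 7801). Against Schwann-like cells 33 of 77 were higher and 11 lower (median 0.44). Against endothelial-like cells 10 of 54 were higher and 8 lower (median 0.12).

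In the WT mouse, the ribosomal protein share was 4.65% (exact Clopper-Pearson 95% interval 4.57% to 4.73%, which covers counting error only, as do the intervals that follow) in ganglion-like and 4.48% (4.40% to 4.56%) in Schwann-like cells. Both lay within the range of the 10 Th-MYCN+/- mice of the same age. In WT ganglion-like cells 6 of 77 members were at least 1.5-fold lower than the mean of those mice, where 11.0% of all genes with at least 100 CPM were, and 1 was higher (11.9% of all genes). In Schwann-like cells 15 of 77 were lower (11.7% of all genes) and 2 higher (14.0%). Endothelial-like cells had 9.10% (8.88% to 9.32%), below all 10 mice, and 44 of 79 members were at least 1.5-fold lower, where 19.0% of all genes were, while 2 were as much higher, where 32.9% of all genes were. Rpl6 was the lowest, with 681 CPM beside 1037 to 7999 CPM. Rpl7l1 stood at 1574 CPM in WT endothelial-like cells, but 99 of its 104 UMIs lay in 1 of the 69 cells. WT macrophage-like cells (6.71%) were also below all 10 mice (lowest 7.11%), while myofibroblast-like (6.82%) and fibroblast-like cells (5.91%) lay within their range. The whole WT library had 5.28% and its droplets without cells 5.99%, beside 7.24% to 13.5% and 7.63% to 14.2% in the 10 mice. These 2 shares also depend on the mix of cells. With 1 mouse, genotype and library cannot be told apart. The 38 WT cells that clustered with neuroblast-like cells had a share of 4.10% (3.96% to 4.24%), and 75 of 79 members were at least 1.5-fold lower, where 34.8% of all genes were. These cells go against their name, with 2207 CPM of neuroblast markers (13858 to 21369 CPM in the 10 mice), 30188 CPM of ganglion markers and 0 transgene UMIs, so their values are given as a description only.

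In the 6-week-old Th-MYCN+/- mouse, neuroblast-like cells had a share of 16.0% (15.9% to 16.0%), above all 10 mice of 3 weeks, whose highest was 14.4%. Its other classes lay within the range of those mice, with 5.91% in ganglion-like, 6.12% in Schwann-like and 17.6% in endothelial-like cells. In neuroblast-like cells, 11 of 79 members were at least 1.5-fold higher than the mean of the younger mice, where 1.87% of all genes were, and 0 were lower, where 3.95% of all genes were. The median log2 difference over these 79 members was 0.44 beside -0.07 for all genes. The 11 members were Rpl9, Rpl35, Rps12, Rplp2, Rps10, Rpl34, Rps20, Rpl18, Rps18, Rpl17 and Rpl36a. Rpl9 led with 576 CPM beside 69.4 to 294 CPM, a log2 difference of 1.64, and Rpl35 followed with 1260 CPM beside 490 to 1163 CPM. Rpl9 was also above or near the top of the range in other classes of both single mice, such as 280 CPM in Schwann-like cells at 6 weeks and 297 CPM in those of the WT mouse, beside 0 to 183 CPM. At least 1.5-fold higher were also 3 of 76 members in ganglion-like cells (2.12% of all genes), 6 of 79 in Schwann-like cells (6.6%) and 19 of 79 in endothelial-like cells (27.2%). As much lower were 0 members in ganglion-like cells (5.66% of all genes), 1 in Schwann-like cells (8.18%) and 1 in endothelial-like cells (22.4%). Below the mean of the younger mice were Rps27rt (log2 difference -0.53) and Rpl22l1 (-0.47), and Rpl22l1 made up 15.0% of its pair in the neuroblast-like cells of this mouse and 55.0% in its ganglion-like cells. At equal depth, neuroblast-like cells of this mouse in which a transgene UMI was captured had 17.5% (17.3% to 17.7%, 100 cells) and those without a captured UMI 15.8% (15.6% to 16.0%, 180 cells). All cells of a Th-MYCN+/- mouse carry the transgene, and a cell without a UMI may still express it. The level of the transgene in this mouse was 456 CPM in neuroblast-like, 1.96 CPM in ganglion-like and 14.3 CPM in Schwann-like cells. With 1 mouse, age, tumor stage and library cannot be told apart.

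**Figure D5:**
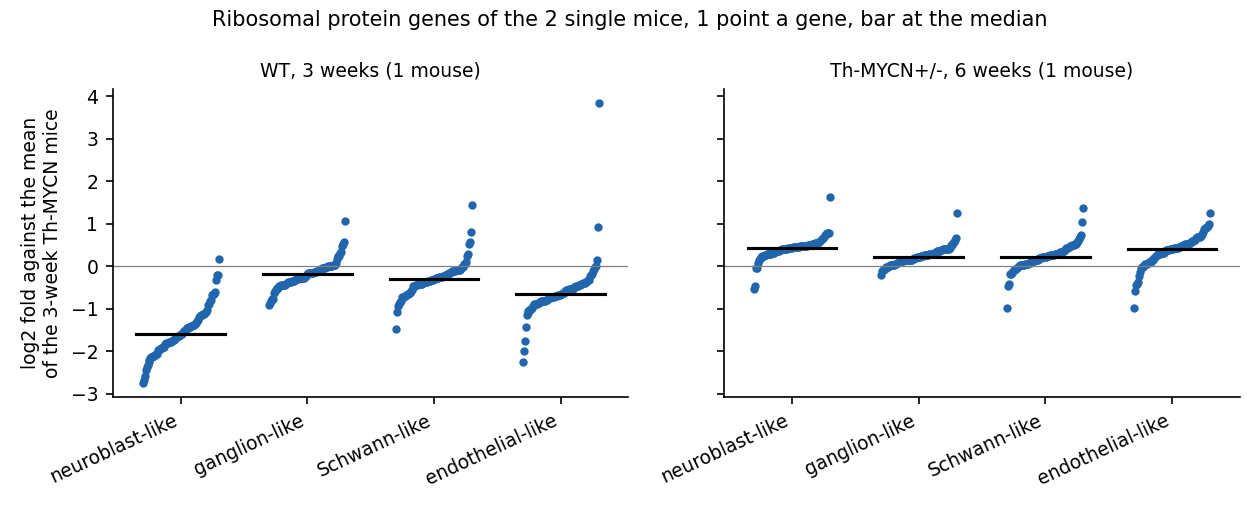
Difference of the single WT mouse (left) and the single 6-week-old Th-MYCN+/- mouse (right) from the mean of the 3-week-old Th-MYCN+/- mice (vertical axis, log2 fold) for each ribosomal protein gene with at least 100 CPM, 1 point a gene, in 4 cell classes, with a bar at the median. The WT cells plotted as neuroblast-like go against that name by their markers. The medians are -1.60, -0.18, -0.31 and -0.66 in the WT mouse and 0.44, 0.23, 0.23 and 0.41 in the 6-week-old mouse.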

How the data were processed

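Cells of 12 SMG were measured with the Chromium 3' v1 kit. The authors mapped reads to mm10 plus the sequence of human MYCN and deposited UMI counts per gene and barcode from Cell Ranger 3.0.2, without normalization or selection of cells. No annotation release, batch or date was given in the sources used here. Each library is 1 mouse.

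Cells were called by an own implementation of EmptyDrops (empty profile from barcodes with at most 100 UMIs, 10000 draws, FDR below 0.01), which called 16256 barcodes, and barcodes with under 200 genes, over 10% mitochondrial or over 60% ribosomal UMIs were dropped. Clusters were made with Seurat 5.3.0 and sctransform 0.4.2 (2000 variable genes, 30 components, resolution 0.5) without ribosomal protein genes, transgene and spikes. Names were given where 50% or more of a marker list (3 markers at the least) reached 1.5 times the median of the clusters and were seen in 10% of the cells. The markers came from the study, which called them on these samples, and this naming rule was set after the clusters were seen. No doublet caller was run.

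UMIs were summed per mouse and class with at least 5 cells. Shares were compared within mice by sign-flip permutation (exact, two-sided) and Benjamini-Hochberg adjustment, and genes by quasi-likelihood in edgeR 4.0.16 (filterByExpr, TMM, mouse as a block, FDR 0.05), which was tested on simulated data. The block comes from the design, as both classes of a pair come from the same mouse. The deviations of both sums from their class means correlated between -0.009 and 0.328 for ganglion-like and between 0.060 and 0.198 for Schwann-like cells. Correlations used 100000 permutations. A paralog pair needed 10 UMIs in a mouse. For comparisons at equal depth, cells with at least 1000 UMIs were thinned to 1000 and shallower cells were left out. DESeq2 1.42.0 served as an alternative, and R 4.3.3 and Python 3.11.15 with scipy 1.17.1 were used.

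The members and lists were chosen with earlier results of these data known. Genes named are the 5 members with the largest and the 5 with the smallest change called against ganglion-like and Schwann-like cells, the paralog pairs, Rps19bp1, those with the most UMIs, and members with known roles, and some genes under this rule are not reported here. Members not called or extreme in single mice, Rps14, and genes of other lists were named after their values were seen. Promoters came from RefSeq tables, and where a gene had several starts the first was used. Protein sequences were not used here. Alternatives were other cell calling, filters, clusterings, depths, free RNA subtraction, scaling and leaving out #2, the library with the most barcodes over 100 UMIs (9893). Leaving out the shallow neuroblast-like cluster or the cell cycle genes was chosen after seeing the data.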

Additional observations from a re-analysis of the deposited data

Results flagged for a closer look

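Among 16 groups of 10 or fewer mice that were checked for a single mouse far from the others, 1 was picked out, and chance alone picks about 1 in 20 such groups. The share of Rpl22l1 in its pair with Rpl22 was 80.6% in the ganglion-like cells of #6 (29 and 7 UMIs, exact 95% interval 64.0% to 91.8%), and the next mouse stood at 63.0%. The gap to that mouse was 0.515 of the whole range of the 10 mice. The value rests on 36 UMIs, and its cause was not tested.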

How the results depend on the processing

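Of 245 repeats of a result under another setting, 206 kept their direction and their side of the threshold, or a count within 1.5 times. The shares of neuroblast-like against ganglion-like, Schwann-like, myofibroblast-like and fibroblast-like cells, and the Rpl22l1 share against ganglion-like cells, did so under every setting run. The macrophage-like difference fell below the threshold with the study's clustering (0.429 points), resolution 0.2 (0.471), barcodes with at least 500 UMIs (0.419) and without mitochondrial and marker UMIs (0.866). The endothelial-like difference did so with at least 500 UMIs (-1.76) and at least 20 cells (-2.21). The difference with the transgene UMI passed at resolution 0.2 (0.450) and 1.0 (0.378), with at least 500 UMIs (0.549), under the stricter cell filter (0.551), at 2000 UMIs (0.420) and without thinning (1.27). That with cell cycle UMIs was lost without thinning (-0.179). The Rps27l share, never past the threshold, turned positive against Schwann-like cells with the study's clustering (0.913) and at least 1000 UMIs (0.354), and against ganglion-like cells with at least 500 UMIs (0.431), the stricter filter (0.967), at least 1000 UMIs (0.0248) and 10% (0.751) or 20% (3.18) free RNA subtracted. The correlation with the transgene passed with at least 1000 UMIs (-0.698), and that with the Schwann-like share was lost with the study's clustering (0.501).

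Scaled to the family alone, 19 members were higher and 25 lower against ganglion-like, 20 and 22 against Schwann-like, and 20 and 18 against endothelial-like cells. Of all genes tested, 744 were then higher and 5590 lower of 7801, 872 and 3393 of 5727, and 1298 and 428 of 2274 in that order. Against endothelial-like cells, members called higher and lower were 7 and 36 with RLE scaling (all genes 1025 and 566 of 2274) and with DESeq2 (1029 and 563 of 2274). They were 32 and 3 without a filter (4468 and 2449 of 18640) and 7 and 25 without #2 (1844 and 1048 of 4857). With at least 1000 UMIs they were 7 and 24 (1773 and 992 of 4633). Called higher were 7 with the study's clustering (all genes 996 of 2308) and 1 without the shallow cluster (699 of 2106). RLE moved the median of all genes to 0.18, 0.34 and 0.41 against the 3 classes, and the family stood 1.16 and 0.76 above it and 0.66 below it. With no replicate block, 78, 71 and 1 members were called higher and 0, 0 and 48 lower, and 0 between cells with and without a transgene UMI, so the block changed no other call by over 1.5 times. Of all genes tested without the block, 2897, 2098 and 823 were called higher against the 3 classes and 2481, 1825 and 686 lower. The causes of these changes were not tested. Settings that left fewer than 6 mice in a pair were not run, which concerned the stricter filter and at least 1000 UMIs for fibroblast-like and myofibroblast-like cells, and at least 20 cells for these and macrophage-like cells. For cells with and without a transgene UMI, at least 20 cells per class and leaving out #2 gave the same samples as the main comparison.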
